A study of Drosophila melanogaster with 4 samples.

Results

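The eye pigment genes of Drosophila melanogaster were examined in RNA from tagged nuclei. They were chosen by name as pigment precursor transporters or as enzymes of the 2 eye pigment pathways, and all 8 (w, st, bw, v, cn, cd, ry and Pu) were found among the 17137 genes of the count table. Nuclei were recovered from pooled frozen heads of flies aged 10 days by INTACT, which pulls down nuclei carrying a tagged envelope protein, here UNC84 fused to GFP. In 1 genotype a split Gal4 made from the VAChT and VGlut drivers switched on the tag (VAChT:VGlut). In the other the split Gal4 was made from the VAChT and VGAT drivers (VAChT:VGAT). Both genotypes carried the same UAS-UNC84 responder and had no treatment, and each had 2 libraries. VAChT, VGlut and VGAT load acetylcholine, glutamate and GABA into synaptic vesicles.

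The red-brown colour of the fly eye comes from ommochromes, which are made from tryptophan, and from pteridines, which are made from GTP. Pigments are laid down in lysosome-related granules of the retinal pigment cells, and ommochromes in photoreceptors too. Their precursors are brought into the granules by ABC transporters that work as pairs. The White protein pairs with Scarlet for the ommochrome precursor and with Brown for the pteridine precursor. Several of the enzymes also work outside the eye: Vermilion and Rosy in the fat body, and Punch in neurons that make dopamine or serotonin, where its pathway supplies the cofactor tetrahydrobiopterin. The w gene is in addition the usual marker of fly transgenes (mini-white). The labels give neither the state of the resident w gene nor the marker of the transgenes, so reads from the resident gene and from marker copies cannot be told apart.

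Library totals ran between 1490390 and 2556988 counts. Levels are given as CPM, the count per 1000000 of the scaled library size. A floor of 3 counts per library equals 1.17 to 2.01 counts per 1000000 of the unscaled library total. The labels call the material neuronal nuclei. The 5 neuronal markers elav, nSyb, Syt1, brp and Syx1A summed to 5690 and 5795 CPM in VAChT:VGlut, against 4949 and 5047 CPM in VAChT:VGAT. Markers of photoreceptors summed to 30391 to 36975 CPM over 19 genes, and markers of fat body to 28526 to 35240 CPM over 9 genes. Both sums were above the neuronal one in every library. The lists differ in length, so this order does not measure the share of a cell type. The 3 retinal pigment cell markers were also present, with Pdh at 1399 to 1660 CPM, rdhB at 90.5 to 108 CPM and pinta at 13.3 to 16.1 CPM.

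No eye pigment gene differed detectably between the genotypes. Of the 8 genes, 7 passed the filter on low counts and 0 had an adjusted p under 0.05 in edgeR's quasi-likelihood test, against 11.8% of the 8246 genes tested. At that share fewer than 1 of 7 genes would be called, so the count of 0 is near the background. At an unadjusted p under 0.05 the count was also 0, against 22.2% of all genes, and limma-voom called 0 of the 7. DESeq2 gave an adjusted p for 2 of them and called 0. Among the 5525 tested genes whose mean level lay within the range of the 7, 6.15% were called. The log2 fold changes of VAChT:VGlut over VAChT:VGAT had a median of -0.11, against -0.01 over all genes tested, with 6 values below 0 and 1 above. In 2 of the 7, bw and Pu, the genotypes did not overlap, against 49.3% of all genes tested. In these bulk samples, fewer cells of a type and less RNA per cell cannot be told apart. Nothing in the labels ties a library to its own cross or collection of flies, so the p-values measure only the spread between these libraries, which may be technical.

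**Figure D1:**
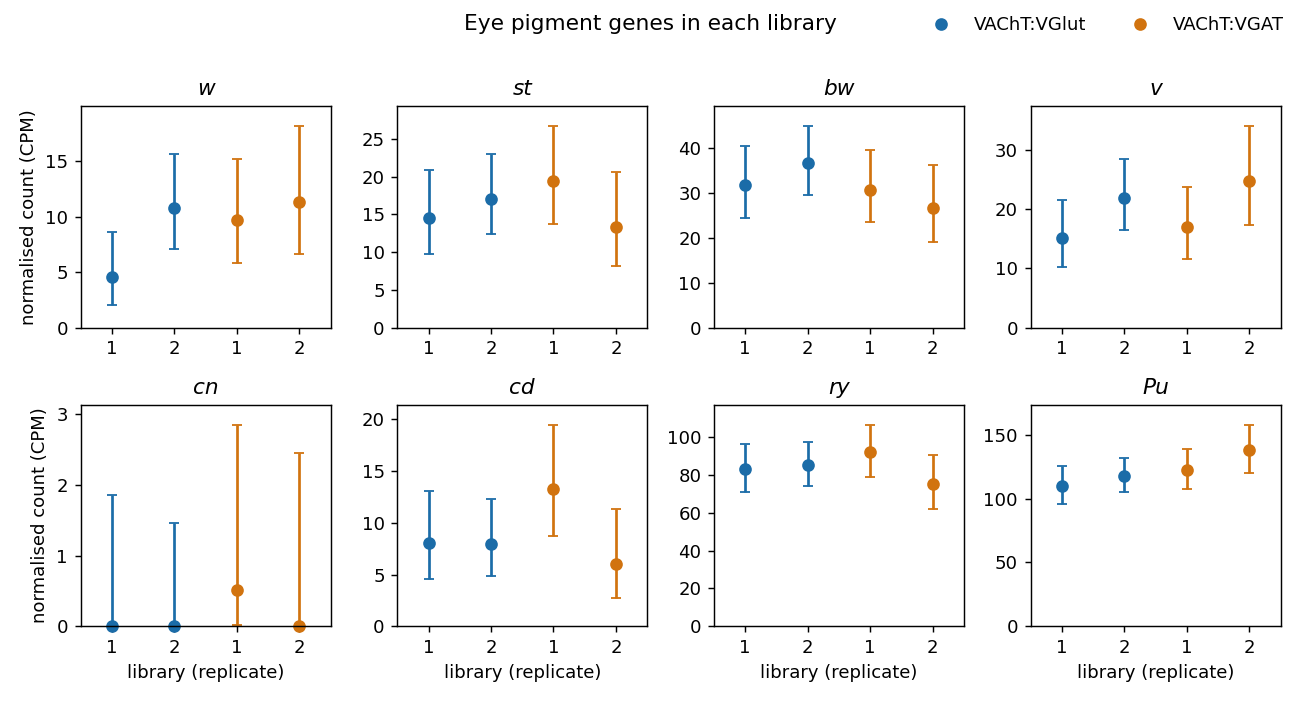
Normalised count (CPM, vertical axis, a different range in each panel) of each eye pigment gene in the 4 libraries. Bars are exact 95% Poisson intervals of the count and cover counting error only. The genotypes are apart for bw and Pu, and cn has at most 0.51 CPM in any library.

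The 3 transporter genes were all expressed, at different levels. The w gene (FBgn0003996; dm6 chromosome X, 2790599 to 2796466, minus strand), whose protein is the shared partner, had 9 and 27 counts in VAChT:VGlut, against 19 and 17 in VAChT:VGAT. This was 4.52 and 10.7 CPM in VAChT:VGlut, against 9.72 and 11.3 CPM in VAChT:VGAT. The first VAChT:VGlut library was the lowest and the second lay between those of VAChT:VGAT, so the genotypes overlapped. On the log2 scale the difference was -0.39 (SE 0.37, 95% interval -1.13 to 0.35, edgeR adjusted p = 0.599), which corresponds to between 0.458-fold and 1.27-fold. It rested on the low library: without VAChT:VGlut replicate 1 it was 0.043, and without VAChT:VGlut replicate 2 it was -1.19 (edgeR adjusted p = 0.249).

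The st gene (FBgn0003515; chromosome 3L, 16497651 to 16500460, plus strand) encodes Scarlet, the partner for ommochrome precursors. It had 14.6 and 17.1 CPM in VAChT:VGlut, against 19.4 and 13.3 CPM in VAChT:VGAT. The VAChT:VGAT libraries lay on either side of both VAChT:VGlut libraries (log2 difference -0.07 with SE 0.27, 95% interval -0.61 to 0.47, edgeR adjusted p = 0.926). Its sign turned when VAChT:VGlut replicate 1 (0.032) or VAChT:VGAT replicate 1 (0.26) was left out.

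The bw gene (FBgn0000241; chromosome 2R, 23527805 to 23538499, minus strand), which encodes the pteridine partner Brown, was the most abundant transporter and the only member with a positive fold change. It had 31.7 and 36.6 CPM in VAChT:VGlut, against 30.7 and 26.6 CPM in VAChT:VGAT. Both VAChT:VGlut libraries lay above both VAChT:VGAT libraries, as they did in 23.6% of all genes tested. The difference of 0.25 on the log2 scale (SE 0.19, 95% interval -0.14 to 0.64) did not pass the test (edgeR adjusted p = 0.504). Of its exon bases, 83.3% were free of exons on the opposite strand; the rest overlapped the gene mi, and the counting was by strand.

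Per base of exon, w was measured at a lower level than either partner in all 4 libraries. The ratio of w to st was 0.283 and 0.573 in VAChT:VGlut, against 0.456 and 0.776 in VAChT:VGAT. The ratio of w to bw was 0.166 and 0.342 in VAChT:VGlut, against 0.369 and 0.495 in VAChT:VGAT. Both ratios were lowest in VAChT:VGlut replicate 1, the library with the fewest w counts. The ratios are a description and no test was made of them.

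Of the ommochrome enzymes, v and cd were detected in every library and cn was close to absent. The v gene (FBgn0003965; chromosome X, 10923972 to 10925631, plus strand) encodes Vermilion, the tryptophan dioxygenase that opens the pathway. It had 15.1 and 21.9 CPM in VAChT:VGlut, against 16.9 and 24.6 CPM in VAChT:VGAT. The lower library of each genotype was replicate 1 and the genotypes overlapped (log2 difference -0.11 with SE 0.25, 95% interval -0.61 to 0.39, edgeR adjusted p = 0.864). The sign turned without VAChT:VGlut replicate 1 (0.11) and without VAChT:VGAT replicate 2 (0.15).

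The cd gene (FBgn0263986; chromosome 3R, 22694959 to 22697990, plus strand) encodes Cardinal, a haem peroxidase of the last step, in which 3-hydroxykynurenine is turned into the brown pigment. It had 8.04 and 7.95 CPM in VAChT:VGlut, against 13.3 and 5.99 CPM in VAChT:VGAT. The VAChT:VGlut libraries were close together and lay between the highest and lowest values, both from VAChT:VGAT. On the log2 scale the difference was -0.33 (SE 0.37, 95% interval -1.07 to 0.40, edgeR adjusted p = 0.668), and without VAChT:VGAT replicate 1 it was 0.41.

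The cn gene (FBgn0000337; chromosome 2R, 7782797 to 7785067, minus strand) encodes Cinnabar, the kynurenine hydroxylase that acts between Vermilion and Cardinal. It had 0 and 0 counts in VAChT:VGlut, against 1 and 0 in VAChT:VGAT. With 1 count among 8008289, its level over the 4 libraries was 0.126 CPM, with an exact 95% Poisson interval of 0.0032 to 0.7 CPM. It did not pass the filter, and both genotypes lay under the floor of 3 counts per library, so no fold change between the genotypes is given. The labels do not give the cn allele of the stocks. Of all genes in the table, 35.5% had a total of 1 count or less. Over the 4 libraries v had 155 counts, which per base of exon was 213 times the level of cn (exact 95% binomial interval 37.6 to 8451, counting error only).

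The nearest gene on each side of cn, apart from its antisense gene, was well covered. CG46385, which lies 160 bases from cn on the same strand, had 45.1 and 48.8 CPM per kilobase of exon in VAChT:VGlut, against 40.3 and 37.5 in VAChT:VGAT. On the other side CanB2, a calcineurin B gene that lies 943 bases from cn, had 40.5 and 35.5 CPM per kilobase in VAChT:VGlut, against 42.2 and 43.9 in VAChT:VGAT. The microRNA gene mir-4980, 1255 bases from cn and with 122 bases of exon, had 0 counts in every library. Exons of the antisense gene asRNA:CR45108 cover all but 31.3% of the exon bases of cn, and that gene had 0 and 0 counts in VAChT:VGlut, against 1 and 2 in VAChT:VGAT. Counting was by strand and no exon base of cn was shared on its own strand.

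**Figure D2:**
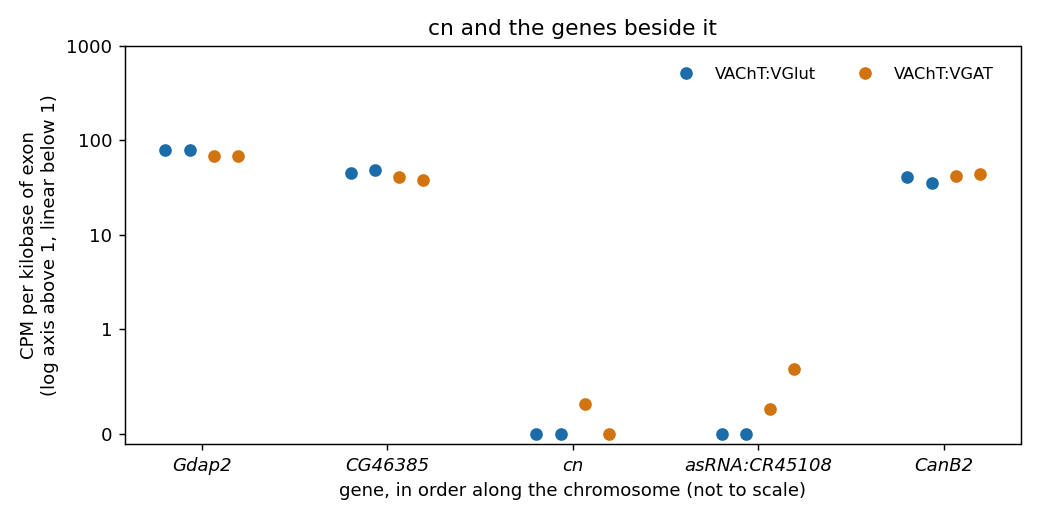
Level per exonic length (CPM per kilobase of exon, vertical axis, logarithmic above 1 and linear below 1) of cn, its antisense gene and genes on either side, in each library. CG46385 and CanB2 have 35.5 to 48.8 CPM per kilobase, while cn and its antisense gene stay under 1.

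Both pteridine enzymes were measured well. The Pu gene (FBgn0003162; chromosome 2R, 21175315 to 21182608, plus strand) encodes Punch, the GTP cyclohydrolase that starts the synthesis of pteridines and of tetrahydrobiopterin. It had 110.1 and 118 CPM in VAChT:VGlut, against 122 and 138 CPM in VAChT:VGAT. Both VAChT:VGlut libraries lay below both VAChT:VGAT libraries, as in 25.6% of all genes tested. The difference of -0.18 on the log2 scale (SE 0.10, 95% interval -0.38 to 0.03) had the smallest p of the 7 genes and did not pass the test (edgeR adjusted p = 0.316). Without VAChT:VGAT replicate 2 it was -0.096 and without VAChT:VGAT replicate 1 it was -0.27 (edgeR adjusted p = 0.253). Its 3 annotated transcripts were counted as 1 gene.

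The ry gene (FBgn0003308; chromosome 3R, 13032528 to 13038020, plus strand) encodes Rosy, the xanthine dehydrogenase that acts on purines and on pteridines. It had 82.9 and 85.0 CPM in VAChT:VGlut, against 92.1 and 75.2 CPM in VAChT:VGAT. The means were 84.0 ± 1.49 CPM in VAChT:VGlut and 83.7 ± 11.9 CPM in VAChT:VGAT (SD, n = 2 each). The interval of the log2 fold change, -0.26 to 0.24 around -0.01 (SE 0.12, edgeR adjusted p = 0.978), was the second narrowest of the 7, after that of Pu. Without VAChT:VGAT replicate 1 the value was 0.16.

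The members were then ranked by their level per exonic length, in CPM per kilobase of exon. Pu came first at 56.7 ± 5.43 (SD over 4 libraries), above 85.1% of the genes tested, and every library of it lay above every library of ry, the next at 19.3 ± 1.60. The levels of ry, v (15.0 ± 3.38) and bw (11.5 ± 1.49) formed a run in which neighbours overlapped between libraries. Next came st at 7.50 ± 1.27, below bw and above w in every library. At 3.86 ± 1.32 and 3.37 ± 1.20, w and cd overlapped, and each lay above fewer than 1 in 10 of the genes tested (7.75% and 6.09%). All libraries of cd lay above cn. The median over all genes tested was 17.2 CPM per kilobase, so 2 of the 8 members exceeded it on average. On the scale without division by length, bw (31.4 CPM) stood above v (19.6 CPM), since v has the shortest exonic length at 1305 bases.

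**Figure D3:**
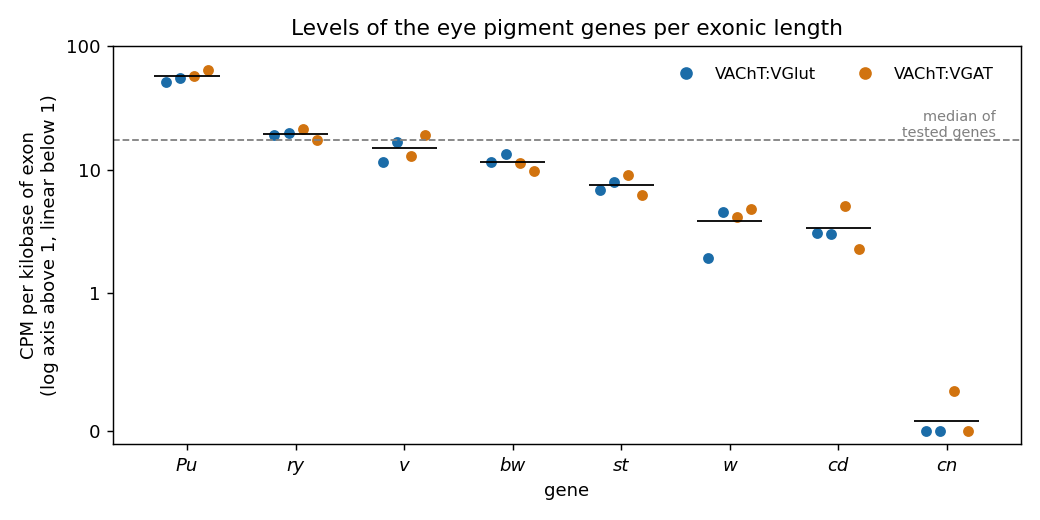
Level of each eye pigment gene per exonic length (CPM per kilobase of exon, vertical axis, logarithmic above 1 and linear below 1), with genes ordered by mean. Points are libraries, black lines are means of the 4 libraries and the dashed line is the median of all genes tested, 17.2. Pu stands at 51.1 to 64.1 and cn at 0 to 0.286.

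Other genes of the same pathways were counted from lists chosen by function. Of 3 other genes of ommochrome synthesis, 0 were called, against 11.8% of all genes tested. Kyat, a kynurenine aminotransferase that draws kynurenine away from the pigment, had 45.7 and 49.3 CPM in VAChT:VGlut, against 64.5 and 61.9 CPM in VAChT:VGAT. The log2 difference of -0.41 (SE 0.15) did not pass the test (edgeR adjusted p = 0.0604), although it did with library size alone as the scaling (adjusted p = 0.0384). The karmoisin gene kar had 103 and 101 CPM in VAChT:VGlut, against 96.7 and 103 CPM in VAChT:VGAT. KFase, the formamidase that makes kynurenine from the product of Vermilion, had 14.6 to 20.3 CPM in VAChT:VGlut and 14.6 to 21.0 CPM in VAChT:VGAT.

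Of 12 other genes of pteridine and cofactor synthesis, 11 were tested, 2 fell in VAChT:VGlut, 0 rose and 9 did not pass, against background shares of 5.54% lower and 6.22% higher. Their median log2 fold change was -0.15. The purple gene pr encodes the synthase that acts directly after Punch, and had 82.9 and 80.3 CPM in VAChT:VGlut, against 103 and 121 CPM in VAChT:VGAT. In edgeR it fell by 0.45 on the log2 scale (SE 0.12, adjusted p = 0.00416). The call was lost without VAChT:VGlut replicate 2 (adjusted p = 0.0941 in edgeR) and without VAChT:VGAT replicate 2 (0.121). After a trend on exonic length was removed, pr fell by 0.31 on the log2 scale and did not pass (edgeR adjusted p = 0.0939).

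Henna (Hn), the phenylalanine hydroxylase, uses tetrahydrobiopterin as its cofactor. It had 144 and 155 CPM in VAChT:VGlut, against 183 and 191 CPM in VAChT:VGAT. It fell by 0.31 on the log2 scale (SE 0.09, adjusted p = 0.00696 in edgeR). Its call was lost without VAChT:VGlut replicate 1 (edgeR adjusted p = 0.115) and without VAChT:VGAT replicate 2 (0.0694). DESeq2 called neither gene, with adjusted p = 0.102 for pr and 0.139 for Hn. The difference between these genes and Pu, which did not pass, was not tested.

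Pigment granules are made by the protein sorting machinery of lysosomes. Of 14 such genes 13 were tested, 1 rose in VAChT:VGlut, 0 fell and 12 did not pass, against background shares of 6.22% higher and 5.54% lower. The median fold change was -0.02 on the log2 scale. A count of 1 in 13 is near the background. The 1 gene was Rab32, the lightoid GTPase of granule formation, with 306 and 288 CPM in VAChT:VGlut, against 252 and 237 CPM in VAChT:VGAT. The log2 fold change of 0.27 (SE 0.07) passed the test (edgeR adjusted p = 0.00399). The call was lost without VAChT:VGlut replicate 1 (edgeR adjusted p = 0.0833), without VAChT:VGAT replicate 2 (0.0705) and in DESeq2 (0.079).

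Purine synthesis provides the GTP from which pteridines are made. All 9 listed genes were tested, 2 fell in VAChT:VGlut, 0 rose and 7 did not pass, against 5.54% lower and 6.22% higher over all genes tested. The median log2 fold change of the list was -0.26. On the branch to guanine nucleotides, bur (0.18 on the log2 scale) and ras (-0.02) did not pass (edgeR adjusted p = 0.356 and 0.948). Paics, which carries out a pair of middle steps of the pathway, had 177 and 192 CPM in VAChT:VGlut, against 245 and 208 CPM in VAChT:VGAT, a log2 difference of -0.30 (SE 0.08, adjusted p = 0.00599 in edgeR). AdSS, which acts on the branch to adenine nucleotides, had 87.4 and 87.4 CPM in VAChT:VGlut, against 106 and 115 CPM in VAChT:VGAT, with a log2 difference of -0.33 (SE 0.11, adjusted p = 0.0406 in edgeR). The Paics call was lost without VAChT:VGlut replicate 1 (adjusted p = 0.132 in edgeR) or VAChT:VGAT replicate 1 (0.442). That of AdSS was lost in each fit that left out a library (edgeR adjusted p = 0.0747 to 0.238), without a filter (0.0688), after thinning (0.128) and after removing a trend on exonic length (0.154). DESeq2 called neither, with adjusted p = 0.156 for Paics and 0.284 for AdSS.

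The 12 other transporters of the White family (ABCG) held 0 calls, against 11.8% of all genes tested. The median of the 12 was -0.11 on the log2 scale. The most abundant were CG3164, with 272 and 240 CPM in VAChT:VGlut, against 278 and 275 CPM in VAChT:VGAT, and CG31689, with 186 and 182 CPM in VAChT:VGlut, against 181 and 176 CPM in VAChT:VGAT. Neither passed the test (edgeR adjusted p = 0.314 for CG3164 and 0.85 for CG31689).

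**Figure D4:**
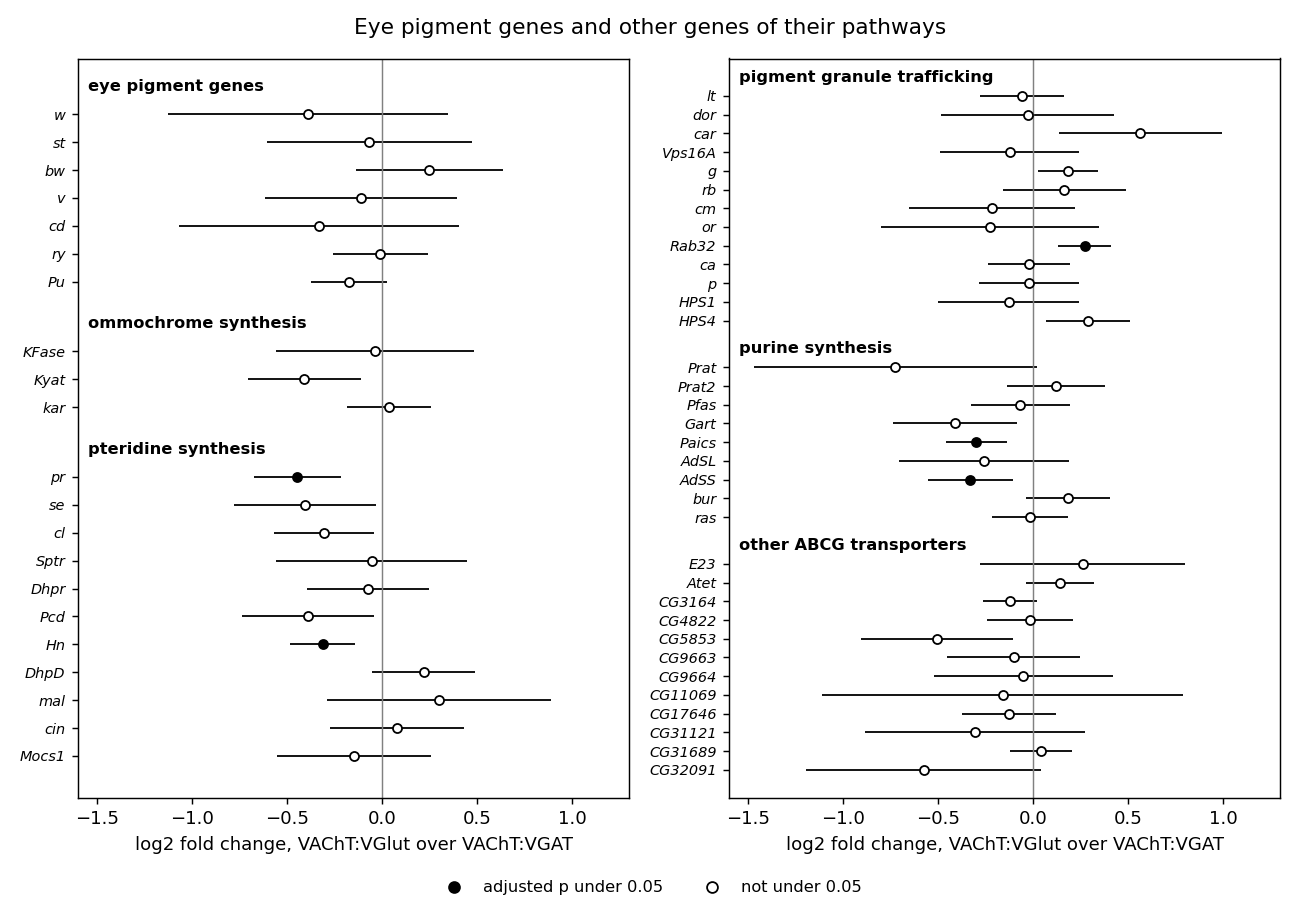
Log2 fold change of VAChT:VGlut over VAChT:VGAT with its 95% interval from the edgeR fit, for the eye pigment genes that were tested and for other genes of the pathways. Filled points have an adjusted p under 0.05. All 7 eye pigment genes are open, and the filled genes are pr, Hn, Rab32, Paics and AdSS.

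Markers of other cells differed between the genotypes alongside these values, and their part in the results was not tested. Of 3 retinal pigment cell markers, 0 rose in VAChT:VGlut and 1 fell, the dehydrogenase gene Pdh, with 1528 and 1399 CPM in VAChT:VGlut, against 1653 and 1660 CPM in VAChT:VGAT (log2 difference -0.18, edgeR adjusted p = 0.000107). The sum of the 3 was 1634 and 1506 CPM in VAChT:VGlut, against 1775 and 1774 CPM in VAChT:VGAT, and was mostly Pdh. On the log2 scale rdhB differed by -0.18 and pinta by 0.05, and neither passed (edgeR adjusted p = 0.378 and 0.953). Over all genes tested, 6.22% rose and 5.54% fell. Of 19 photoreceptor markers 9 rose in VAChT:VGlut, 2 fell and 8 did not pass. The rhodopsin gene ninaE rose, with 16055 and 16269.5 CPM in VAChT:VGlut, against 12551 and 12821 CPM in VAChT:VGAT. The arrestin gene Arr2 also rose, with 4059.8 and 3905 CPM in VAChT:VGlut, against 3388 and 3405 CPM in VAChT:VGAT. The 2 that fell were the rhodopsin genes Rh3 and Rh5. Rh3 had 554 and 565 CPM in VAChT:VGlut, against 633 and 615 CPM in VAChT:VGAT. Rh5 had 194 and 181 CPM in VAChT:VGlut, against 241 and 252 CPM in VAChT:VGAT. Of 9 fat body markers 0 rose and 8 fell, with sums of 29164 and 28526 CPM in VAChT:VGlut, against 35197 and 35240 CPM in VAChT:VGAT. The most abundant of them encode yolk proteins: Yp1 had 11567 and 11176 CPM in VAChT:VGlut, against 13616 and 13595 CPM in VAChT:VGAT, and Yp2 had 6868 and 7053 CPM in VAChT:VGlut, against 8842 and 8901 CPM in VAChT:VGAT. These genes made up most of the sum, so it also depends on the mix of sexes and does not measure fat body alone. The mix of sexes was not tested. Of 11 glial markers 0 rose and 4 fell. The glutamine synthetase gene Gs2, 1 of the 4, had 754 and 681 CPM in VAChT:VGlut, against 979 and 1000.1 CPM in VAChT:VGAT. The glutamate transporter gene Eaat1 had 435 and 452 CPM in VAChT:VGlut, against 493 and 459 CPM in VAChT:VGAT. Eaat1 did not pass (edgeR adjusted p = 0.249). No marker of these lists was at 0 in all libraries.

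Neuronal genes differed as well, and their part was likewise not tested. The shares over all genes tested were 6.22% higher and 5.54% lower in VAChT:VGlut. All 5 neuronal markers rose in VAChT:VGlut, among them nSyb with 2040.2 and 2069.9 CPM in VAChT:VGlut, against 1759 and 1787 CPM in VAChT:VGAT, and Syt1 with 1969.8 and 2037 CPM in VAChT:VGlut, against 1808 and 1876 CPM in VAChT:VGAT. Of 5 genes for the transmitters of the labelled neurons, 1 rose and 1 fell. VGlut rose, with 379 and 381 CPM in VAChT:VGlut, against 243 and 269 CPM in VAChT:VGAT. Gad1, the glutamate decarboxylase that makes GABA, fell, with 653 and 677 CPM in VAChT:VGlut, against 1238 and 1251 CPM in VAChT:VGAT. VAChT had 452 and 485 CPM in VAChT:VGlut, against 438 and 474 CPM in VAChT:VGAT, and VGAT had 183 and 168 CPM in VAChT:VGlut, against 161 and 168 CPM in VAChT:VGAT; neither passed (edgeR adjusted p = 0.684 and 0.57). Of 3 genes of male dosage compensation 1 rose and 0 fell: lncRNA:roX1 had 1706 and 1735 CPM in VAChT:VGlut, against 1553 and 1538 CPM in VAChT:VGAT, and msl-2, which did not pass, had 64.3 and 55.6 CPM in VAChT:VGlut, against 64.0 and 55.3 CPM in VAChT:VGAT.

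Markers of neurons that make dopamine or serotonin, which use the cofactor made through Punch, were 5 in number. Of these 0 were called, against 11.8% of all genes tested. The sum of the 5 markers was 511 and 523 CPM in VAChT:VGlut, against 458 and 500.1 CPM in VAChT:VGAT. Their most abundant gene, the vesicular monoamine transporter Vmat, had 380 and 382 CPM in VAChT:VGlut, against 323 and 359 CPM in VAChT:VGAT. For ple, which encodes the tyrosine hydroxylase of dopamine synthesis, the values were 64.8 and 71.9 CPM in VAChT:VGlut, against 59.4 and 69.9 CPM in VAChT:VGAT. Vmat, which made up most of the sum, and ple were the 2 markers with a positive log2 fold change. The other 3 were negative, and the median of the 5 was -0.04.

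For the 3 most abundant members, the genes of most similar pattern were sought by the distance between log2(CPM + 1) values centred on the mean of the 4 libraries. Only genes with a mean level within a factor of 2 were considered. Nearest to Pu were CG6870 (distance 0.0389) and PPP1R15 (0.0393) of 2239 genes. Nearest to ry were dao (0.0274) and AhcyL1 (0.0327) of 2607 genes, and nearest to bw were CG5504 (0.0272) and trn (0.0355) of 3125 genes. None of these 6 genes was called between the genotypes. With 4 libraries these distances describe the profiles and nothing further.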

How the data were processed

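The authors deposited 1 table of raw counts per gene and library. Per the file headers, featureCounts 1.5.1 counted read pairs on the reverse strand over exons of the dm6 refGene annotation; fastp and STAR are named in the submitters' processing notes. The kit was strand-specific and RNA was poly(A)-selected, per the labels. Exonic lengths, another deposited column in bases, set the levels per kilobase. Symbols were matched to FlyBase identifiers; coordinates are the table's own, and the spans of the 8 genes were identical in the Ensembl BDGP6 annotation. All per-sample columns were used.

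The filter was filterByExpr with its minimum count of 10 and minimum total of 15, which 8246 genes passed. These were fitted to all 4 libraries with edgeR 4.0.16 (R 4.3.3): TMM scaling, genotype as the only term, quasi-likelihood F test, Benjamini-Hochberg adjustment over all genes tested, threshold 0.05. CPM values are counts per 1000000 of the TMM-scaled library size, computed here. A standard error is the absolute log2 fold change divided by the square root of F. The intervals of fold changes are built from it, so both are approximate. Poisson and binomial intervals and floors (scipy 1.17.1) cover counting error only, since reads amplified from 1 molecule are not independent. The main edgeR fit, limma-voom and DESeq2 were first run on simulated counts, and the other alternatives were not. DESeq2 1.42.0 and limma 3.58.1 were among the 15 alternatives.

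The members and lists were chosen with earlier results of these data known. Named were all members, up to 4 called genes per pathway list by smallest p (otherwise the 2 most abundant), the 2 most abundant of a marker list, and the 2 genes of nearest pattern to each of the 3 most abundant members. Of the genes outside this rule, KFase, CG46385, CanB2, asRNA:CR45108, mir-4980, pinta, VGlut, VGAT, elav, brp and Syx1A were named after their values were seen. So were Rh3, Rh5, bur and ras.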

Additional observations from a re-analysis of the deposited data

How the results depend on the processing

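None of the 7 tested eye pigment genes was called under any of the 15 alternatives, where the lowest adjusted p was 0.196 (Pu, with a mean count of at least 50); that filter kept 3 of the 7, DESeq2 gave an adjusted p for 2, and cd was not tested in every thinning draw. Of 95 values of these genes 82 kept their sign. The signs of bw (0.13 to 0.37) and Pu (-0.27 to -0.096) held in all of them. Reversed values were those of ry without a filter (0.0022), in DESeq2 (0.0056), with the replicate block (0.0025) and after thinning to the smallest total (0.029), and that of v after removing the length trend (0.00026). In fits that left out a library, where a lone library is assumed to vary like the others, values ranged from -1.19 to 0.043 for w, -0.28 to 0.26 for st, -0.42 to 0.15 for v, -0.73 to 0.41 for cd and -0.13 to 0.16 for ry, and for kar from -0.010 to 0.075. The cause was not tested.

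The count of genes called (970, with 513 higher and 457 lower in VAChT:VGlut) was 370 in DESeq2, 186 when the biological variation was set to a coefficient of 0.1, 46 in a test against a 1.5-fold change, 628 after removing the length trend and 513 to 738 without 1 library. Thinning gave a median of 684 over 11 random draws (477 to 838), a number of draws chosen after seeing the data. The common coefficient of biological variation estimated from these libraries was 2.18%, lower than the fixed 0.1. With library size alone 398 were higher and 575 lower. With the replicate block 1049 genes were called and 0 eye pigment genes; deviations of same-numbered libraries had a correlation of -0.03 across genes, and the labels do not pair them. Of the pathway lists, the ommochrome list had 1 call with library size alone and 1 with a mean count of at least 50. The pteridine, granule and purine lists (2, 1 and 2 calls) had 0 each in DESeq2, at the fixed coefficient and against 1.5-fold. After thinning the purine list had 1. After removing the length trend the pteridine and purine lists had 1 each, and the purine list had 1 without a filter. Without 1 library the calls ranged from 0 to 3, 0 to 1 and 0 to 1. Depth limits w, cd and cn most, at 9 to 27, 9 to 26 and 0 to 1 counts per library.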
